A study of Mus musculus with 2 samples.

Results

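The genes of haem breakdown and iron handling were followed here in stromal cells of mouse lymph nodes after bleeding around the brain. The 9 genes were Hmox1, Hmox2, Blvra, Blvrb, Fth1, Ftl1, Slc40a1, Slc48a1 and Tfrc, taken by symbol from the 27998 genes of the deposited tables, and all 9 were found. They are named by their roles in the pathway. The SAH group had subarachnoid haemorrhage, produced by infusing the mouse's own blood, and the sham group had a sham operation. Both groups were sampled at 24 h, with the mandibular lymph nodes of 20 mice pooled into 1 library per group. Neither strain, sex nor age is stated in the labels used here, and no transgene or other treatment is named.

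Because each group is 1 library, no difference below has a replicate check and no test was made: every comparison is between 2 libraries rather than between conditions. Levels are UMI counts, each standing for 1 captured RNA molecule, summed over the cells of a class and scaled to the same total for every class (CPM). A fold is the SAH level divided by the sham level. Ranges in square brackets are 95% intervals and cover counting error only. A gene was called higher or lower where its fold passed 1.5 in that direction, provided the gene reached 10 CPM in 1 of the libraries.

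Haem released from haemoglobin is moved out of endolysosomes into the cytosol by the haem transporter encoded by Slc48a1. Haem oxygenases, the inducible enzyme of Hmox1 and the constitutive enzyme of Hmox2, open the haem ring and yield carbon monoxide, ferrous iron and biliverdin, which the reductases of Blvra and Blvrb turn into bilirubin or related products. The iron is stored in ferritin, a shell of heavy chains (Fth1) and light chains (Ftl1), or leaves the cell through ferroportin (Slc40a1), while transferrin-bound iron enters through the transferrin receptor (Tfrc). Macrophages of the spleen and liver are the cells best known for this work. Iron sets the output of several of these messages through the iron-responsive element, a hairpin in the RNA that iron regulatory proteins bind when iron is low: in a 5′ untranslated region it holds back translation, and in a 3′ untranslated region it protects the message from decay.

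These hairpins are shown because they decide which of the 9 messages an RNA count can follow: where the element is in the 5′ untranslated region, the protein can change while the count does not. A search of the untranslated regions of GENCODE mouse transcripts for a hairpin with an unpaired C and a CAGTGN loop found matches in 4 of the 9 genes, whereas over all 21888 genes with a coding transcript 6 (0.0274%) had a match in a 5′ untranslated region and 17 (0.0777%) in a 3′ untranslated region. Each 29-base window is given on the strand of the gene, 5′ to 3′, with capitals for the unpaired C and the loop, and coordinates are for mm10 (GRCm38). A match is a description of the letters only.
Fth1, 5′ untranslated region, chr19:9982732-9982760, plus strand: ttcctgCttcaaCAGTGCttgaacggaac
Ftl1, 5′ untranslated region, chr7:45459779-45459807, minus strand: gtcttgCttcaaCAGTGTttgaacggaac
Slc40a1, 5′ untranslated region, chr1:45925465-45925493, minus strand: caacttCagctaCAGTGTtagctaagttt
Tfrc, 3′ untranslated region, chr16:32631219-32631247, plus strand: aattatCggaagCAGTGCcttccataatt
Tfrc, 3′ untranslated region, chr16:32631598-32631626, plus strand: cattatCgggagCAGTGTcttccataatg
Tfrc, 3′ untranslated region, chr16:32631663-32631691, plus strand: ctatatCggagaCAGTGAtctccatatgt
Tfrc, 3′ untranslated region, chr16:32631710-32631738, plus strand: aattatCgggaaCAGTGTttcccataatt
The Tfrc gene carries 4 separate windows, and the other 3 genes carry 1 each. No match was found for Hmox1, Hmox2, Blvra, Blvrb or Slc48a1, which says only that these letters are not in their annotated untranslated regions.

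The cells were sorted with beads, first by removing CD45-bearing cells and then by keeping those bound by antibodies to CD31 or podoplanin. The labels name lymphatic endothelial cells, but most of the barcodes did not hold a UMI of Prox1, the transcription factor that defines that lineage. Barcodes were kept when they showed 500 or more genes and no more than 10% of UMIs from mitochondrial genes, which left 11454 SAH and 11157 sham barcodes, with a median of 5747 and 5039 UMIs. Lymphatic endothelial cells (LEC, at least 1 Prox1 UMI) were 2562 SAH and 2364 sham cells, or 22.4% and 21.2% of the kept barcodes. Blood endothelial cells (BEC, no Prox1, with Pecam1 and with Ly6c1 or Flt1) were 6480 and 6329 cells. Fibroblastic stroma (neither Pecam1 nor Prox1, and at least 3 UMIs of Dcn and Col3a1) was 1631 and 1532 cells, and 781 SAH and 932 sham cells met none of these rules. Among markers that the rules did not use, the lymphatic hyaluronan receptor Lyve1 had 987 CPM in SAH and 572 CPM in sham LEC, against 41.6 CPM in SAH and 31.7 CPM in sham BEC. Cd34, a marker of blood vessels, had 607 CPM in SAH and 578 CPM in sham BEC, against 118 and 98.5 CPM in LEC. The fibroblast receptor Pdgfra had 295 CPM in SAH and 297 CPM in sham stroma, against 21.0 and 15.2 CPM in LEC and 33.9 and 16.1 CPM in BEC. Ccl21a, also on the LEC list, went against the names, with 1657 CPM in SAH and 941 CPM in sham LEC, below the 5300 and 3012 CPM of BEC and the 15736 and 10532 CPM of stroma. LEC were also the deepest class, with a median of 8193 SAH and 6871.5 sham UMIs. The libraries shared 76 barcode sequences.

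Across LEC, BEC and stroma the 7 genes with enough RNA to be called stayed short of 1.5-fold between the libraries. Ferritin, biliverdin reductase and Slc48a1 RNA was somewhat higher in the SAH library, and Hmox1 RNA was not. In LEC 0 of 7 were called in either direction, where 5.97% of all 8867 genes were called higher and 3.0% lower. The count was also 0 of 7 in BEC, beside 5.92% of genes called higher and 2.31% lower, and 0 of 7 in stroma, beside 5.96% and 7.1%. The other 2 genes, Slc40a1 and Tfrc, stayed under 10 CPM in all 3 classes. Over the 7 genes past 10 CPM the median log2 fold was 0.32 in LEC, 0.26 in BEC and 0.23 in stroma, while over all genes past 10 CPM it was 0.00, -0.01 and -0.07.

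**Figure D1:**
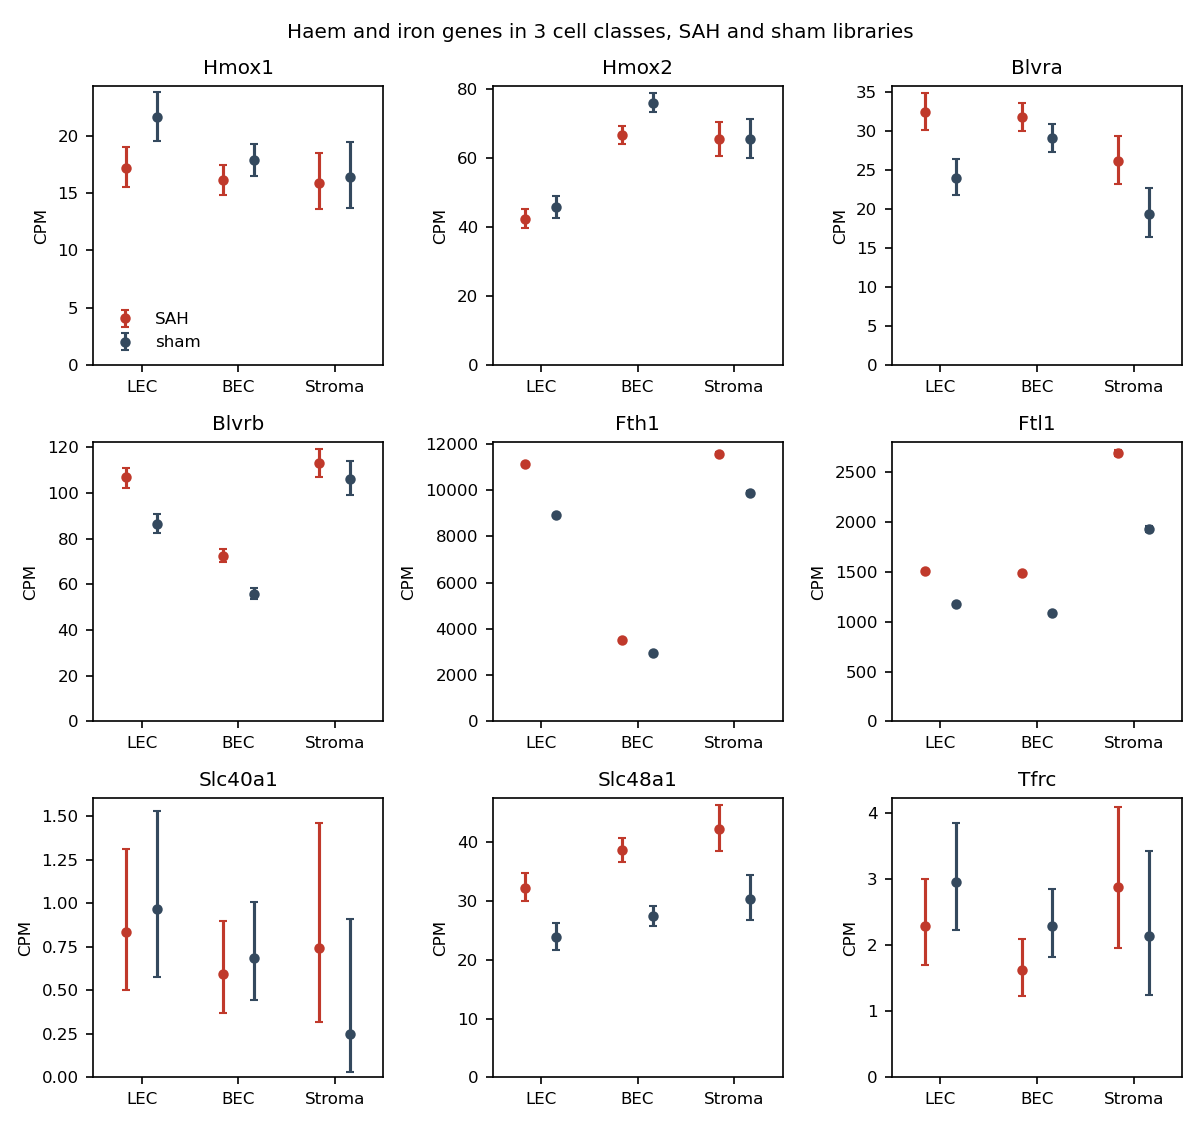
Level of each of the 9 genes (CPM, linear axes starting at 0) in LEC, BEC and fibroblastic stroma, with the SAH library left of the sham library; points are single libraries and bars are exact 95% counting intervals. Fth1 separates LEC and stroma, at 8904 to 11578 CPM, from BEC, at 2952 to 3528 CPM, in both libraries, whereas Slc40a1 and Tfrc stay under 5 CPM with intervals that mostly overlap.

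Slc48a1, which encodes the haem transporter of endolysosomes, had 32.3 CPM in SAH LEC and 23.9 CPM in sham LEC, a fold of 1.35 [1.2, 1.53]. In BEC it had 38.6 CPM in the SAH library and 27.4 CPM in the sham library, a fold of 1.41 [1.30, 1.53]. Stroma had 42.3 CPM in SAH and 30.4 CPM in sham, a fold of 1.39 [1.19, 1.63]. The folds were thus alike in the 3 classes and their intervals did not reach 1. When LEC were divided by sinus marker, as described below, the fold stayed between 1.29 and 1.41 over 7 groups of cells that share no cell. Of the LEC groups, only Ackr4 LEC had an interval above 1 (1.38 [1.14, 1.66]), and the others included 1. With cells thinned to 2000 UMIs, the log2 fold was 0.77 in Ackr4 LEC, 0.11 in Madcam1/Coch LEC and 0.16 in Marco LEC. The thinned share with a Slc48a1 UMI was 5.89% [3.98, 8.36] of SAH and 6.45% [4.53, 8.85] of sham LEC with no sinus marker. In LEC with several markers it was 5.87% [3.67, 8.83] of SAH and 2.5% [0.685, 6.28] of sham cells.

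At the limits given above, Hmox1 (chromosome 8, 75093621 to 75100589 of mm10) was no higher in the SAH library in any of the 3 classes. It had 17.2 CPM in SAH LEC and 21.6 CPM in sham LEC, from 391 and 401 UMIs, a fold of 0.797 [0.692, 0.918]. BEC gave 16.1 CPM in SAH and 17.9 CPM in sham (0.900 [0.804, 1.01]), and stroma 15.9 CPM in SAH and 16.4 CPM in sham (0.970 [0.768, 1.23]). In stroma the sign depended on the processing, with the log2 fold below 0 under 8 of 13 alternatives and above 0 under 4. It ran from -0.1 to 0.4 there, and was highest with at most 5% mitochondrial UMIs. The LEC value depended on how cells of different depth were weighted: with every cell thinned to 2000 UMIs, Hmox1 had 18.5 CPM in SAH and 19.6 CPM in sham LEC, a log2 fold of -0.08 in place of -0.33. In those thinned cells the share with an Hmox1 UMI was 3.51% [2.82, 4.30] of SAH and 3.79% [3.05, 4.64] of sham LEC, 3.19% [2.76, 3.68] and 3.76% [3.28, 4.28] of BEC, and 3.23% [2.41, 4.24] and 2.95% [2.13, 3.96] of stroma. No class here is known to lack Hmox1, and a like low share in every class is also what free RNA gives, so Hmox1 made by a cell and Hmox1 carried in from free RNA cannot be told apart at this level. The 4 cell cycle markers summed to 23.3 CPM in SAH and 69.4 CPM in sham LEC, and to 12.4 and 66.7 CPM in BEC, and without barcodes holding any of them the Hmox1 fold was 0.769 in LEC and 0.903 in BEC. As a guide to free RNA, Dcn, a matrix gene of fibroblasts, had a UMI in 29% of SAH and 14.9% of sham thinned BEC.

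Hmox2, the constitutive haem oxygenase, was level or slightly lower in the SAH library. In LEC it had 42.4 CPM in SAH and 45.7 CPM in sham, a fold of 0.928 [0.845, 1.02]. BEC had 66.6 CPM in SAH and 75.9 CPM in sham (0.877 [0.830, 0.926]), and stroma 65.3 CPM in both libraries (1.00 [0.892, 1.12]). LEC held less Hmox2 than BEC in both libraries, at 0.638 [0.591, 0.687] of the BEC level in SAH and 0.602 [0.557, 0.651] in sham.

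Of the biliverdin reductases, Blvra had 32.5 CPM in SAH LEC and 24.0 CPM in sham LEC, a fold of 1.35 [1.2, 1.52]. In stroma it had 26.2 CPM in SAH and 19.4 CPM in sham (1.35 [1.11, 1.65]), and in BEC 31.8 CPM in SAH and 29.1 CPM in sham, where the interval of the fold reached 1 (1.09 [1.00, 1.19]). Blvrb, which also acts as a flavin reductase, had 107 CPM in SAH LEC and 86.5 CPM in sham LEC (1.23 [1.16, 1.31]). BEC had 72.5 CPM of it in SAH and 55.9 CPM in sham (1.30 [1.22, 1.37]). For stroma the values were 113 CPM in SAH and 106 CPM in sham, an interval that included 1 (1.06 [0.970, 1.16]). Blvrb was higher in LEC than in BEC in either library, by 1.47 [1.39, 1.55] times in SAH and 1.55 [1.45, 1.65] times in sham.

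**Figure D2:**
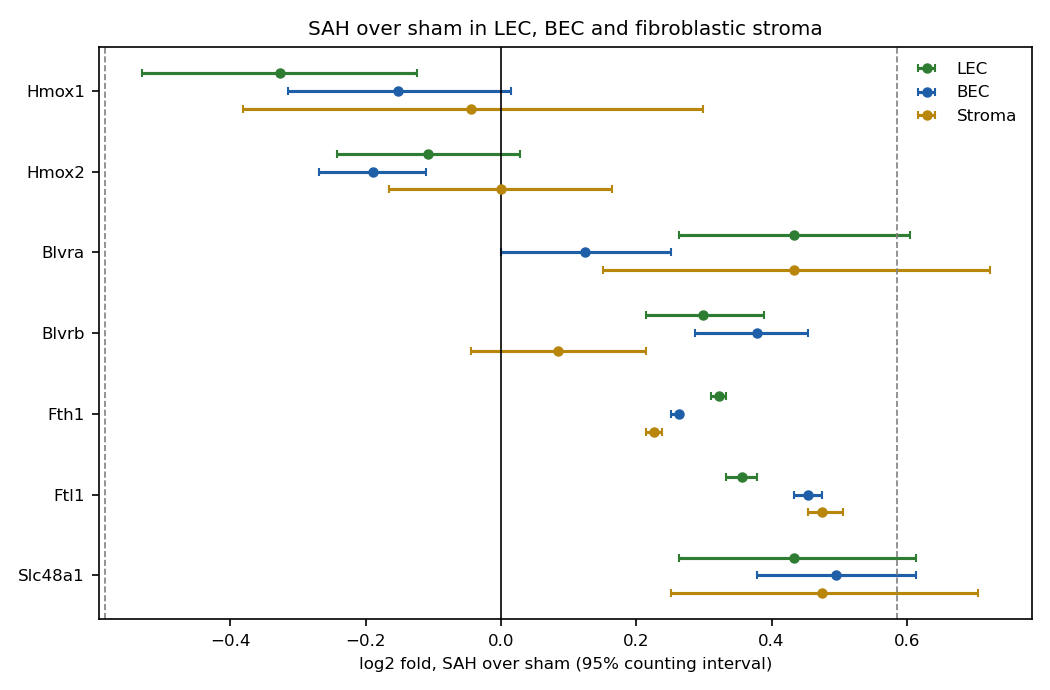
Log2 fold, SAH over sham, of the 7 genes past 10 CPM, in LEC, BEC and fibroblastic stroma; bars are 95% counting intervals from 1 library per group, and dashed lines mark 1.5-fold. Hmox1 and Hmox2 lie at or below 0, from -0.33 to 0.00, and the other 5 genes lie between 0.08 and 0.49, short of the dashed line.

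Ferritin heavy chain RNA set the classes apart more than it set the libraries apart. Fth1, the heavy chain with the ferroxidase activity that oxidises iron for storage, had 11116 CPM in SAH LEC and 8904 CPM in sham LEC, a fold of 1.25 [1.24, 1.26]. Stroma had 11578 CPM in SAH and 9892 CPM in sham (1.17 [1.16, 1.18]), while BEC had 3528 CPM in SAH and 2952 CPM in sham (1.2 [1.19, 1.2]). These intervals are narrow because the counts are large, and they say nothing of the spread between mice. The LEC level was 3.15 [3.13, 3.17] times the BEC level in SAH and 3.02 [2.99, 3.04] times in sham, so the gap between these classes was far wider than the gap between libraries. At equal depth, with each cell thinned to 2000 UMIs, the median cell held 20 Fth1 UMIs in SAH and 17 in sham LEC, 21 and 18 in stroma, and 4 and 4 in BEC. Dcn, a matrix gene of fibroblasts, had 1293 CPM in SAH and 608 CPM in sham BEC, and 12202 and 11436 CPM in stroma. The part of stromal RNA in the BEC folds of Fth1, and of Ftl1 below, was not tested. Within BEC, cells with a UMI of Ackr1, a venular marker, and none of Sox17 had 4777 CPM of Fth1 in SAH and 4098 CPM in sham. Cells with Sox17 and no Ackr1 had 2538 CPM in SAH and 2346 CPM in sham. Sox17 is an arterial marker, but these cells numbered 2839 in SAH and 2831 in sham, and whether all were arterial was not tested. The Ackr1 cells were also deeper, with a median of 7851 UMIs in SAH and 7211 in sham against 4845 and 4522 in the Sox17 cells. The part of depth in the Fth1 difference between them was not tested. BEC with neither marker, 2503 in SAH and 2350 in sham, had 4116 and 2965 CPM of Fth1. Their median depth was 3747 UMIs in SAH and 3754.5 in sham. BEC with both markers had 4050 CPM of Fth1 in SAH and 3620 CPM in sham.

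Ftl1, the light chain that helps iron form its mineral core, had 1506 CPM in SAH LEC and 1175 CPM in sham LEC, a fold of 1.28 [1.26, 1.30]. BEC had 1490 CPM in SAH and 1087 CPM in sham (1.37 [1.35, 1.39]), and stroma 2690 CPM in SAH and 1929 CPM in sham (1.39 [1.37, 1.42]). Unlike Fth1, it was nearly level between LEC and BEC, with a ratio of 1.01 [0.997, 1.02] in SAH and 1.08 [1.06, 1.10] in sham. For each Ftl1 UMI there were therefore 7.38 Fth1 UMIs in SAH and 7.58 in sham LEC, 4.3 and 5.13 in stroma, and 2.37 and 2.72 in BEC. These are ratios of molecules tagged at the 5′ end, not scaled for length, and are set against each other only between classes. Ftl1 is uncertain for another reason: 47.3% of its 50-base stretches also occur in 1 other gene of the tables, the copy Gm10116. That copy was counted apart with 1.72 CPM in SAH and 0.862 CPM in sham LEC, and adding it to Ftl1 left the LEC fold at 1.28. Its 39 SAH and 16 sham UMIs are too few beside 34215 and 21809 of Ftl1 to move that fold. The sum therefore cannot settle the uncertainty, and the part of the shared stretches in the Ftl1 levels and ratios was not tested.

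**Figure D3:**
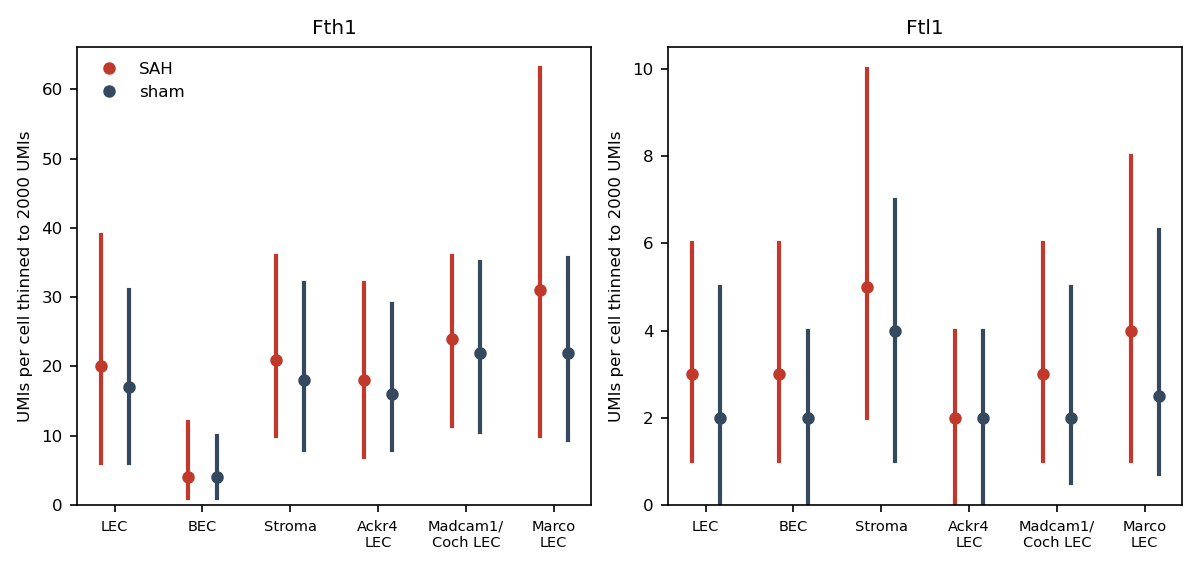
Fth1 and Ftl1 UMIs per cell after thinning every cell to 2000 UMIs, in LEC, BEC, fibroblastic stroma and 3 LEC subsets, SAH left of sham; points are medians over cells and lines run from the 10th to the 90th percentile, so they show the spread between cells of 1 library. The median Fth1 count is 4 in BEC and 17 to 21 in LEC and stroma, and Marco LEC reach the highest median in SAH, 31, while in sham Marco and Madcam1/Coch LEC both have 22.

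Slc40a1 and Tfrc, the genes of iron export and of transferrin uptake, had few UMIs in every class. Ferroportin RNA (Slc40a1) had 19 UMIs in SAH and 18 in sham over all LEC, which is 0.836 [0.504, 1.31] CPM in SAH and 0.969 [0.575, 1.53] CPM in sham. BEC gave 22 UMIs in SAH and 25 in sham, and stroma 8 in SAH and 2 in sham, a fold of 2.95 with an interval from 0.589 to 28.5. Tfrc had 52 UMIs in SAH and 55 in sham LEC, or 2.29 and 2.96 CPM, a fold of 0.773 [0.519, 1.15]. In BEC it had 60 UMIs in SAH and 84 in sham (0.704 [0.497, 0.993]), and in stroma 31 and 17 UMIs (1.34 [0.721, 2.59]). After thinning, a Slc40a1 UMI was present in 0.279% of SAH and 0.215% of sham LEC, and a Tfrc UMI in 0.438% of SAH and 0.387% of sham LEC. For Slc40a1 the interval of the fold ran from below to above 1 in all 3 classes, so no difference was detectable at this depth.

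The LEC were next split by markers of the lymph node sinuses: Ackr4, an atypical chemokine receptor of the sinus ceiling, Madcam1 and Coch, which mark the floor, and the scavenger receptor Marco, which marks medullary sinus cells. Cells with exactly 1 of these were 982 SAH and 1096 sham Ackr4 LEC, 452 and 447 Madcam1/Coch LEC, and 244 and 92 Marco LEC. A further 525 SAH and 569 sham LEC had none, and 359 and 160 had several. Marco cells were 9.52% of SAH LEC and 3.89% of sham LEC, and cells with several markers were 14.0% and 6.77%. A deeper cell more often shows a UMI of a marker, the SAH LEC were the deeper ones, and the part of depth in these shares was not tested.

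Marco LEC held the most Fth1 of the LEC groups, and Hmox1 was called higher in these cells. Fth1 had 18356 CPM in SAH Marco LEC and 11476 CPM in sham Marco LEC, a fold of 1.60 [1.56, 1.64], against 1.09 [1.08, 1.10] in Ackr4 LEC (9354 CPM in SAH and 8561 CPM in sham) and 1.09 [1.07, 1.10] in Madcam1/Coch LEC (11829 and 10881 CPM). Hmox1 had 36.3 [28.5, 45.5] CPM in SAH and 19.4 [10.0, 33.9] CPM in sham Marco LEC, from 75 and 12 UMIs, a fold of 1.87 [1.01, 3.78]. Blvra had 35.8 CPM in SAH and 16.2 CPM in sham, from 74 and 10 UMIs (2.21 [1.14, 4.80]). With these, 3 of 7 genes were called higher in Marco LEC, where 15.9% of all genes were called higher and 13.5% lower. None of the 7 was called lower, and the sham side rests on 92 cells. Ftl1 in the same cells had 2068 CPM in SAH and 1647 CPM in sham (1.26 [1.17, 1.35]), short of the threshold. After thinning, 8.05% [4.92, 12.3] of SAH and 3.41% [0.709, 9.64] of sham Marco LEC had an Hmox1 UMI, and these intervals overlap. For Blvra the shares were 6.78% [3.92, 10.8] and 4.55% [1.25, 11.2], with intervals that overlap too.

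Within the SAH library the Marco LEC had 2.31 [1.72, 3.08] times the Hmox1 level of Ackr4 LEC and 3.40 [2.31, 5.05] times that of Madcam1/Coch LEC. In the sham library the same ratios were 0.938 [0.475, 1.68] and 1.45 [0.706, 2.74]. Blvra in Marco LEC was level with Ackr4 LEC in SAH, at a ratio of 1.01 [0.777, 1.31], and was 0.586 [0.277, 1.10] in sham. Against Madcam1/Coch LEC its ratios were 1.45 [1.06, 1.97] in SAH and 0.897 [0.413, 1.74] in sham. Marco LEC of the 2 libraries also differed in markers of other cells. The 8 stromal markers summed to 1361 CPM in SAH and 3133 CPM in sham, and in sham 75.1% of those UMIs came from 10 of the 92 cells. The 10 macrophage markers summed to 18.9 CPM in SAH and 105 CPM in sham, with 2 sham barcodes and 0 SAH barcodes of all kept cells holding 3 or more C1q UMIs. The 4 neutrophil markers summed to 3.39 CPM in SAH and 102 CPM in sham Marco LEC, and the mural cell markers to 118 and 217 CPM, and the part of mural RNA in these folds was not tested. Without barcodes that held any macrophage marker UMI, the Marco folds were 1.93 for Hmox1, 2.29 for Blvra and 1.56 for Fth1. Without barcodes with 3 or more leukocyte marker UMIs, neutrophil markers included, they were 1.78, 2.4 and 1.59 for these genes. With at most 5% mitochondrial UMIs the Hmox1 fold was 1.34, below the threshold, from 68 SAH and 10 sham UMIs.

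**Figure D4:**
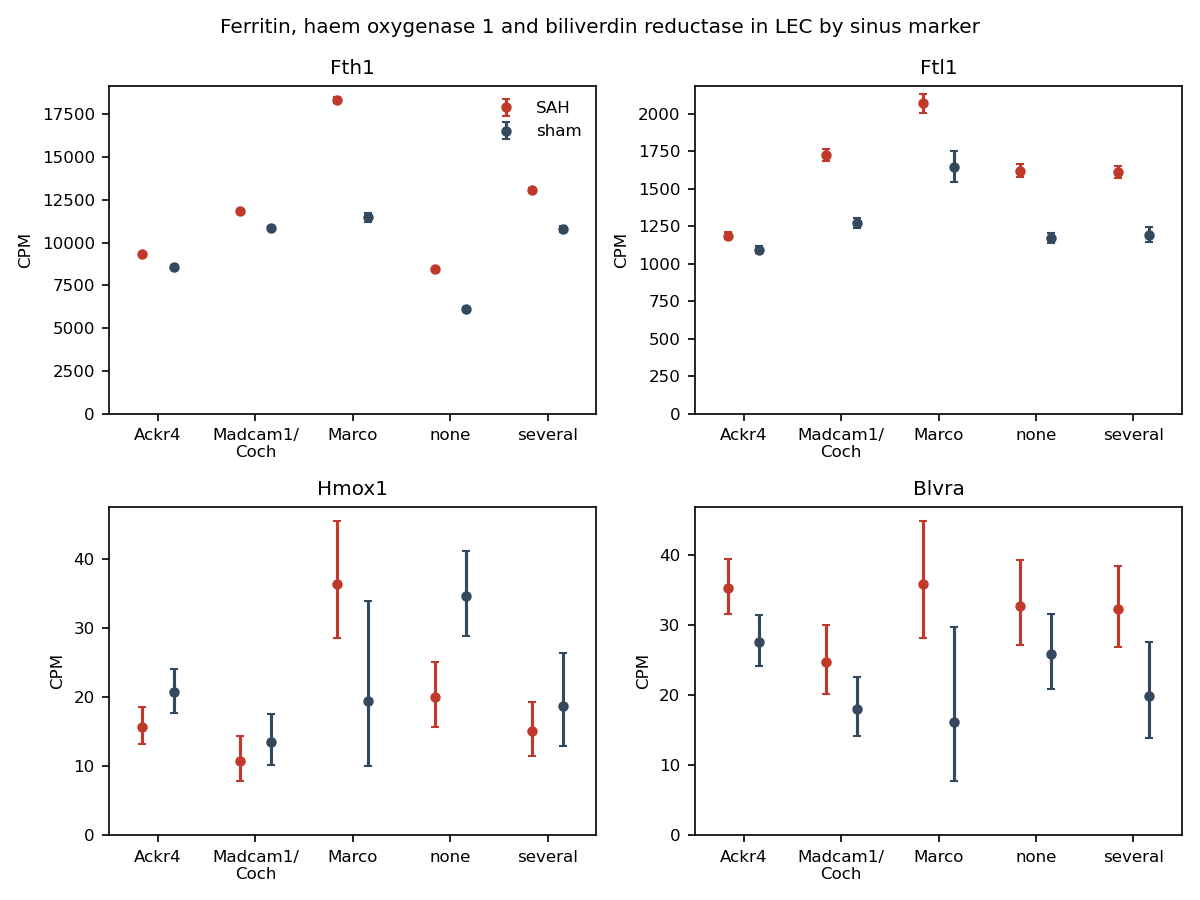
Level (CPM, linear axes starting at 0) of Fth1, Ftl1, Hmox1 and Blvra in LEC grouped by sinus marker, SAH left of sham, with exact 95% counting intervals. Marco LEC of the SAH library are highest for Fth1, at 18356 CPM, and for Hmox1, at 36.3 [28.5, 45.5] CPM. Sham LEC with no marker have 34.6 [28.8, 41.1] CPM of Hmox1, an interval that overlaps. Hmox1 is lower in SAH than in sham in the 4 groups other than Marco LEC.

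None of the 7 genes was called in Ackr4 LEC, beside 6.27% of genes called higher and 2.86% lower, or in Madcam1/Coch LEC, beside 9.05% higher and 5.91% lower. Summed over all cells, Hmox1 was below its sham level in both. With cells thinned to 2000 UMIs its log2 fold was -0.2 in Ackr4 LEC but 0.13 in Madcam1/Coch LEC. Ackr4 LEC had 15.7 CPM in SAH and 20.7 CPM in sham (0.758 [0.603, 0.953]), and Madcam1/Coch LEC had 10.7 CPM in SAH and 13.4 CPM in sham (0.796 [0.523, 1.21]). LEC with no sinus marker had 19.9 CPM in SAH and 34.6 CPM in sham, a fold of 0.576 [0.426, 0.774]. That was the 1 of 7 genes called lower there, where 7.37% of all genes were called lower and 8.37% higher. In these cells the 4 cell cycle markers summed to 5.73 CPM in SAH and 102 CPM in sham, and the 4 neutrophil markers to 74.5 and 2.18 CPM. Without barcodes holding a cell cycle marker UMI the Hmox1 fold was 0.567, and it was also 0.567 without barcodes with 3 or more leukocyte marker UMIs. In LEC with several markers, Blvra alone was called higher, with 32.3 CPM in SAH and 19.8 CPM in sham (1.63 [1.11, 2.44]), where 9.67% of genes were called higher and 7.51% lower. In the cells that met none of the class rules, 2 of 7 genes were called higher, Blvra and Slc48a1, and 0 lower, beside 9.49% and 9.68% of all genes. Over the 7 groups of cells that share no cell (the 5 LEC groups, BEC and stroma), Blvra, Blvrb, Fth1, Ftl1 and Slc48a1 were higher in SAH in 7 of 7, Hmox1 was lower in 6 of 7, and Hmox2 was lower in 5 of 7. The groups come from the same 2 libraries and are not replicates of each other. Some of these folds had intervals that reached 1, as for Blvrb in stroma and Blvra in BEC. The folds are from sums over all cells, and some signs changed with cells thinned to 2000 UMIs. The thinned log2 fold was -0.11 for Blvrb in stroma. In Madcam1/Coch LEC it was 0.13 for Hmox1 and 0.15 for Hmox2. In LEC with no sinus marker the thinned share with a Slc48a1 UMI was lower in SAH than in sham, as given above. The share of all genes that kept 1 sign over these groups was not counted, so the counts are not a trait of these genes. Taken singly, 49.5% of all genes past 10 CPM in LEC, 49.4% in BEC and 42.6% in stroma were higher in SAH. With the 5 LEC groups given equal weight in both libraries, the LEC log2 fold of Fth1 was 0.24 in place of 0.32 and that of Hmox1 was -0.36.

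Haemoglobin RNA, a sign of red cell material, was found in a larger share of SAH than of sham LEC, BEC and stroma. At least 1 UMI of 4 haemoglobin genes was present in 15.7% [14.3, 17.2] of SAH and 5.5% [4.61, 6.50] of sham LEC, in 10.3% and 5.2% of BEC, and in 11.2% and 4.57% of stroma. At equal depth of 2000 UMIs the LEC shares were 4.42% [3.65, 5.30] in SAH and 1.46% [1.02, 2.04] in sham. The total did not go with these shares in every class: haemoglobin UMIs numbered 11790 in SAH and 6673 in sham LEC and 9664 and 3693 in stroma, but 41433 and 45909 in BEC and 2313 and 13360 in the cells of no class. Barcodes with 10 or more of these UMIs were 30 in SAH and 32 in sham. Most haemoglobin UMIs sat in few barcodes: in LEC the 10 richest cells held 96.3% of them in SAH and 98.2% in sham. Leaving out every barcode with a haemoglobin UMI gave LEC log2 folds of 0.31 for Fth1, 0.35 for Ftl1 and -0.29 for Hmox1, close to 0.32, 0.36 and -0.33 with them. Macrophage RNA was low in every class, at 20.0 CPM in SAH and 16.7 CPM in sham LEC over 10 markers, 43.7 and 20.6 CPM in BEC, and 23.2 and 6.05 CPM in stroma. The haemoglobin scavenger receptor Cd163, 1 of these macrophage markers, had 1 UMI in SAH LEC and 0 in sham LEC, and 0 in BEC and stroma. Genes of the immediate early and dissociation response, 13 in all, summed to 9343 CPM in SAH and 10996 CPM in sham LEC, 10882 and 11295 CPM in BEC, and 13209 and 17651 CPM in stroma, and their part in the differences above was not tested.

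Other genes of the pathway were read from 7 lists, and most of those with at least 10 CPM stayed within 1.5-fold. The background was 5.97% of all genes called higher and 3.0% lower in LEC, 5.92% and 2.31% in BEC, and 5.96% and 7.1% in stroma. Among 23 measured genes of iron transport and storage, 3 of 12 past 10 CPM were called higher and 0 lower in LEC, 5 of 12 higher and 0 lower in BEC, and 3 of 15 higher and 1 lower in stroma. The lists of haem transport and scavenging gave 1 of 5 higher and 1 lower in LEC, 2 of 4 higher and 0 lower in BEC, and 1 of 6 higher and 1 lower in stroma. For haem synthesis the counts were 1 of 9 higher in LEC and 0 of 9 in BEC and in stroma, with none lower. Iron regulation had 0 of 9 in LEC and in BEC and 1 of 10 higher in stroma. The hepcidin axis had 0 of 6 in LEC, 0 of 9 in BEC and 1 of 8 lower in stroma, and iron-sulfur cluster assembly had none called in the 3 classes (8, 8 and 10 genes). Targets of NRF2, the factor that also induces Hmox1, had 0 of 8 called in LEC, 1 of 6 higher in BEC and 0 of 5 in stroma, and their median log2 folds were -0.10, -0.07 and -0.02.

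Lcn2, the siderophore-binding protein lipocalin 2, showed the widest gap between the libraries among the genes named from these lists. It had 518 CPM in SAH LEC and 241 CPM in sham LEC (2.15 [2.07, 2.22]), 130 CPM in SAH and 18.5 CPM in sham BEC (7.0 [6.45, 7.59]), and 234 CPM in SAH and 16.9 CPM in sham stroma (13.9 [11.6, 16.6]). Cp, the ferroxidase ceruloplasmin that works with ferroportin, had 627 CPM in SAH and 378 CPM in sham stroma (1.66 [1.59, 1.73]). Its fold was wider in BEC, with 90.5 CPM in SAH and 34.3 CPM in sham (2.64 [2.48, 2.82]). LEC had the highest level of Cp, with 703 CPM in SAH and 491 CPM in sham (1.43). Scara5, a ferritin receptor, had 17.1 CPM in SAH and 9.10 CPM in sham LEC (1.88), and 28.7 and 8.76 CPM in BEC (3.28). Its level was highest in stroma, with 245 CPM in SAH and 156 CPM in sham (1.57), and the part of stromal RNA in its endothelial folds was not tested. Hp, which encodes the haemoglobin-binding haptoglobin, had 30.5 CPM in SAH and 10.5 CPM in sham stroma (2.91 [2.28, 3.75]). Steap3, an iron reductase of endosomes, had 22.5 CPM in SAH and 44.1 CPM in sham stroma (0.510 [0.431, 0.602]). Lcn2 and Hp are also abundant in neutrophils, whose 4 markers summed to 24.2 CPM in SAH and 10.1 CPM in sham LEC, 47.2 and 37.1 CPM in BEC, and 32.6 and 4.66 CPM in stroma. Without barcodes with 3 or more leukocyte marker UMIs the Lcn2 fold was 2.14 in LEC, 6.96 in BEC and 13.7 in stroma, and the Hp fold in stroma was 3.81. The share of BEC with a Dcn UMI, given above, also differed between the libraries, and the part of free RNA in these differences was not tested.

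Lrp1, the receptor that takes up haem bound to haemopexin, was called higher in both endothelia. It had 32.2 CPM in SAH and 19.8 CPM in sham LEC (1.63 [1.43, 1.85]), and 49.5 and 22.1 CPM in BEC (2.24 [2.06, 2.44]). Lrp1 in stroma, the class where it is most abundant, had 449 CPM in SAH and 367 CPM in sham (1.22). The 8 stromal markers summed to 2205 CPM in SAH and 1214 CPM in sham BEC, Dcn among them with a fold of 2.13, and to 1464 and 1369 CPM in LEC; the part of stromal RNA in the Lrp1 folds was not tested. Hebp1, a haem-binding protein, was called lower in LEC, with 13.0 CPM in SAH and 22.2 CPM in sham (0.586 [0.503, 0.682]), and in stroma, with 14.5 and 32 CPM (0.453 [0.369, 0.555]). Pgrmc2, which chaperones haem inside the cell, had 71.9 CPM in SAH and 47.5 CPM in sham BEC (1.51). Alad, the second enzyme of haem synthesis, had 20.3 CPM in SAH and 13.5 CPM in sham LEC (1.5). Slc7a11, the cystine transporter among the NRF2 targets, had 19.4 CPM in SAH and 11.0 CPM in sham BEC (1.75 [1.55, 1.99]). Spic, a transcription factor of haem-recycling macrophages, had 36.9 CPM in SAH and 22.4 CPM in sham stroma (1.64 [1.37, 1.97]), and Smad7, an inhibitor of BMP signalling, had 51.6 and 86.2 CPM there (0.599 [0.535, 0.671]). Pcbp1, an iron chaperone that delivers iron to ferritin, is named after its values were seen: it had 355 CPM in SAH and 499 CPM in sham LEC (0.712), 306 and 436 CPM in BEC (0.701), and 212 and 317 CPM in stroma (0.668), each within the threshold.

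**Figure D5:**
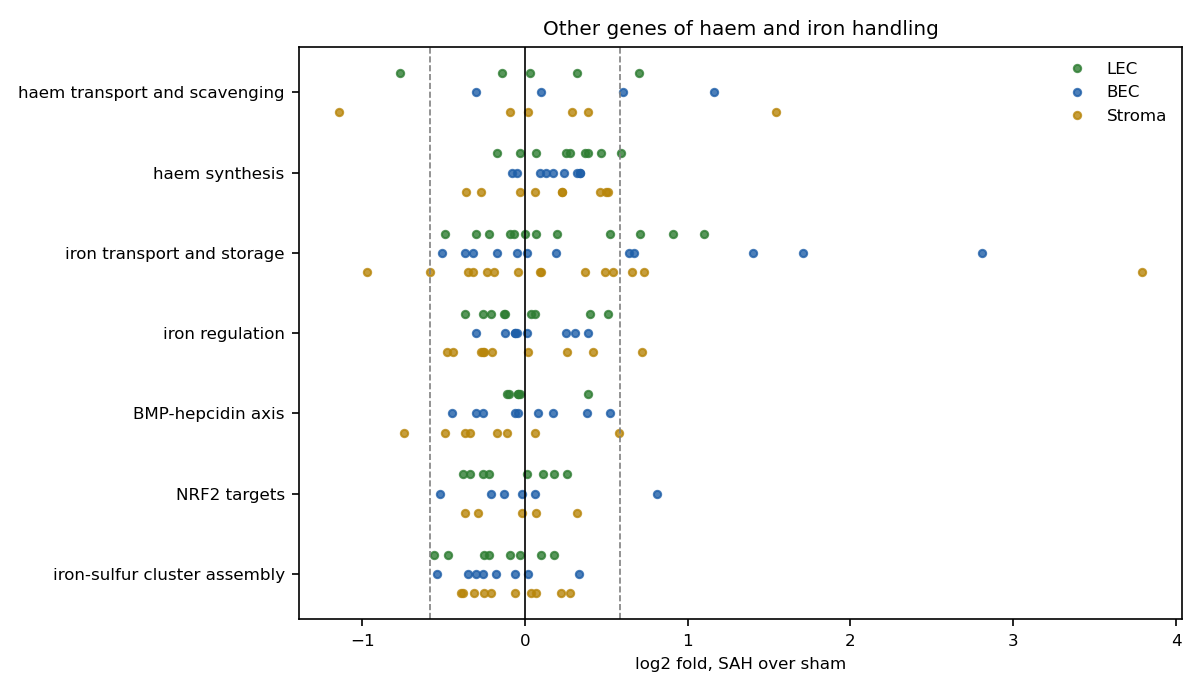
Log2 fold, SAH over sham, of genes with at least 10 CPM in 7 lists of haem and iron genes, in LEC, BEC and fibroblastic stroma; each point is 1 gene, and dashed lines mark 1.5-fold. Most points lie between the dashed lines, and the farthest, at 3.79 in stroma and 2.81 in BEC, is Lcn2.

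Genes with a pattern most like Hmox1, Slc40a1 and Tfrc were sought over 10 points, the 3 LEC subsets, BEC and stroma in each library, by Pearson's r of log2(CPM + 1). For Hmox1 these were A4galt (r = 0.904), Akap10 (0.884) and Ankrd50 (0.854). Slc40a1 was nearest to Cpne8 (0.944), Hadhb (0.941) and Tsc1 (0.937), and Tfrc to Chrnb4 (0.912), Vdr (0.910) and Robo1 (0.910). The points share 2 libraries, and those of Slc40a1 and Tfrc rest on few UMIs, so these likenesses are descriptions with no test.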

How the data were processed

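Per the labels' protocols, stromal cells of mandibular lymph nodes were tagged at the 5′ end on the 10x Genomics platform. Per the submitters' processing notes, Cell Ranger 5.0, STAR, Seurat 3.0.2 and mm10 were used, and the matrices carry cellranger 5.0.0, per the file headers. The deposited values are unscaled UMI counts of 1 SAH and 1 sham library, 13766 and 13952 barcodes with 78497486 and 72860197 UMIs. The annotation release, and whether introns or strand were used in counting, are not given in the sources used here.

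From these counts, barcodes with at least 500 genes and at most 10% mitochondrial UMIs were kept. Scrublet (scanpy 1.11.5, expected rate 0.1) called 876 SAH (6.36%) and 729 sham (5.23%) barcodes doublets; they were kept, and left out as an alternative. Counts were summed per class and library, over 22714477 SAH and 18567746 sham UMIs in LEC, 37038729 and 36519648 in BEC, and 10764781 and 7936552 in stroma. Fold intervals are exact conditional binomial, CPM intervals exact Poisson and shares Clopper-Pearson, all at 95%. Thinning to 2000 UMIs left out 53 SAH and 40 sham LEC, 626 and 552 BEC, and 84 and 107 stromal cells. No test was made, since cells are not replicates. The scripts were tested on simulated data. Python 3.11.15, numpy 2.4.6, scipy 1.17.1 and pandas 2.3.3 were used.

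Members, lists and thresholds were chosen with earlier results of these data known. All 9 genes are named, and from each list and class up to 2 genes with the largest fold in each direction among those called. Lrp1 and Scara5 in stroma, Cp in LEC and BEC, and Pcbp1 are named outside this rule. Hairpins were required to have 5 of 5 paired bases above the unpaired C and at least 4 of 6 below it, in GENCODE M21 transcripts of GRCm38. Alternatives were the mitochondrial limit, the gene limit, doublets, scaling, thinning, class rules, leukocyte, cycling and haemoglobin barcodes, the richest cells and the CPM minimum.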

Additional observations from a re-analysis of the deposited data

Results flagged for a closer look

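Hmox1 moved in opposite directions in 2 LEC subsets: its fold was 1.87 [1.01, 3.78] in Marco LEC and 0.758 [0.603, 0.953] in Ackr4 LEC. The difference between the subsets was not tested, each value comes from 1 library per group, and the sham Marco value rests on 12 UMIs. The macrophage markers of Marco LEC summed to 18.9 CPM in SAH and 105 CPM in sham, and without barcodes holding any such UMI the Hmox1 fold was 1.93.

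A signal was also seen outside the classes described above, in the 781 SAH and 932 sham cells that met none of the class rules. Blvra had 32.3 CPM in SAH and 19.3 CPM in sham there, a fold of 1.67 [1.22, 2.31], and Slc48a1 had 43.2 CPM in SAH and 22.9 CPM in sham, a fold of 1.89 [1.42, 2.52]. These 2 of 7 genes were called higher beside 9.49% of all genes. The cells are a mixture without a name, with a median of 3161 SAH and 2722.5 sham UMIs, and the part of their composition was not tested.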

How the results depend on the processing

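Of the 21 pairs of a gene past 10 CPM and a class, 17 kept 1 sign under every alternative run; the exceptions were Hmox2 in LEC and Hmox1, Hmox2 and Blvrb in stroma. Log2 folds in LEC over 15 alternatives ran from -0.38 to -0.08 for Hmox1, 0.31 to 0.54 for Blvra, 0.24 to 0.34 for Fth1 and 0.30 to 0.37 for Ftl1. The count of genes called higher in stroma was 1 with at most 5% mitochondrial UMIs (Slc48a1, a log2 fold of 0.65) and 1 with no minimum CPM (Slc40a1, from 8 SAH and 2 sham UMIs), in place of 0; the cause was not tested, beyond the lower minimum itself. The other counts of called genes in LEC, BEC and stroma stayed at 0 under each alternative run. In Marco LEC Hmox1 passed 1.5-fold under 13 of 14 alternatives, Blvra under 14 of 14 and Fth1 under 14 of 15, the exception for Fth1 being subsets that need not be exclusive (a log2 fold of 0.48). The 10 richest sham cells held 100% of the Hmox1 and of the Blvra UMIs there, so leaving them out gave no fold. The alternatives largely reuse the same few sham UMIs, so these tallies are not separate checks. Other scalings shifted the median gene by at most 0.068 (log2, stroma). Leaving out haemoglobin barcodes, equal composition of LEC groups, a Pecam1 UMI in LEC, the split of BEC and, for Lcn2, Hp, Lrp1 and Hmox1 in LEC with no sinus marker, leaving out barcodes of other cells were chosen after seeing the data. No paired analysis was possible because each group is 1 library, and no library can be left out for the same reason. Depth limits Slc40a1 and Tfrc, and in Marco LEC Hmox1 and Blvra, with 12 and 10 sham UMIs.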
